A study of Mus musculus with 24 samples.

Results

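The genes described here encode the precursors of a group of neuromodulatory peptides: *Penk* (enkephalins), *Pnoc* (nociceptin), *Gal* (galanin), *Tac1* (substance P and neurokinin A), *Nts* (neurotensin), *Vip* (vasoactive intestinal peptide), *Cck* (cholecystokinin), *Nucb2* (nesfatin-1) and *Vgf* (the VGF-derived peptides). They were taken by name from a list of 10 precursor genes, drawn up with earlier results of these data known. Of these, 9 were found among the 13998 genes of the deposited hypothalamus table, and *Pdyn* was not analysed here.

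The 24 mice were males of a B6.CAST-17.1-derived F2 intercross, 10 to 16 weeks old when phenotyping began, and carried B6 alleles outside a CAST segment of Chr 17. Within that segment 12 mice were *cast/cast* and 12 were *b6/b6*, and 1 library was made from each mouse. All had chosen between a carbohydrate/protein and a fat/protein diet for 10 d, returned to chow, and received both diets again for 48 h before a 4 h fast and tissue collection. For sequencing the authors took the *cast/cast* mice that ate most of the carbohydrate/protein diet and the *b6/b6* mice that ate least of it, so genotype and selected intake cannot be told apart in any comparison between the groups. The CAST segment came from a single congenic male, and the hypothalamus was taken whole, by eye.

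Neuropeptides are made as larger precursors, which prohormone convertases and carboxypeptidase E cut inside secretory granules, and the products act mostly through G protein-coupled receptors. In the hypothalamus galanin and the enkephalins are known for stimulating intake, and neurotensin, cholecystokinin and nesfatin-1 for reducing it. Vasoactive intestinal peptide is a transmitter of the suprachiasmatic nucleus, the circadian pacemaker.

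SAGE-Seq counts a single short tag per transcript, next to the CATG closest to the 3′ end where the enzyme NlaIII cuts. The tag expected for 8 of the precursors is shown because it is the stretch of the transcript that stands for the gene in every value that follows. The tags run 5′ to 3′ and were read from GENCODE M21 transcripts matched to RefSeq (GRCm38), with CATG in capitals. *Pnoc* has 2 matched transcripts with different tags.

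Penk: CATGctgctttgtgctgtacagttgcc
Pnoc (longer 3′ end): CATGtaacactaaactcagttagctgt
Pnoc (shorter 3′ end): CATGaaatcagacctggggttttgcct
Gal: CATGtccactgtgcacgtgtgtcctgt
Tac1: CATGtttcctgtttcgtgactatatag
Nts: CATGgatattttgcctgtcaaatgaat
Vip: CATGtagttaactattcaacagagcag
Cck: CATGggctggatggattttggccggcg
Nucb2: CATGagtgagattgataacaacaaaga

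Each of these tags was the 3′-most tag of 1 gene only among the annotated transcripts. The tag of *Penk* lay at chr4:4133727-4133753 on the minus strand, those of *Pnoc* at chr14:65400888-65400914 and chr14:65401582-65401608 on the minus strand, and that of *Gal* at chr19:3410065-3410091 on the minus strand. The tag of *Tac1* lay at chr6:7562851-7562877 on the plus strand, that of *Nts* at chr10:102481789-102481815 on the minus strand and that of *Vip* at chr10:5647126-5647152 on the plus strand. All of these were in 3′ UTRs. The *Cck* tag was in coding sequence of exon 3 of 3 (chr9:121490099-121490125, minus strand). The *Nucb2* tag was also coding and spanned the junction after exon 10 of 14 (chr7:116529058-116533088, plus strand, intron included), at 496 bases from the transcript's end. The deposited table gives hits per gene and not the tags counted, so these are expected and not observed tags. None of the 9 genes is on Chr 17.

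Libraries held 7754202 to 13082873 tag hits. In 4 of them the median correlation with the other libraries was lowest, at 0.803 (*b6/b6* 12), 0.827 (*cast/cast* 6), 0.841 (*b6/b6* 6) and 0.871 (*cast/cast* 4), and values without them are given beside the results they move most. The first 2 principal components of the values of the same genes, centred by genotype, held 40.8% and 18.6% of the variance. Of 13 hypothalamic neuron markers 12 were listed, led by *Pmch* (mean normalized count 8130) and with *Kiss1* lowest (13.7). Striatal markers were present too, with 9 of 11 listed, summed levels of 2794 to 5233 in *b6/b6* mice against 2971 to 6071 in *cast/cast* mice, *Rgs9* highest (1451) and *Drd2* lowest (6.98). Of 8 choroid plexus markers 5 were listed, with *Kl* highest at 72.0. Of 8 pituitary markers 4 were listed, with summed levels of 0 to 472 in *b6/b6* mice and 0 to 349 in *cast/cast* mice, and of 9 markers of cortex and hippocampus 6 were listed, with *Cux2* highest at 28.7.

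Since a tag is counted once per transcript, normalized counts (tag hits divided by the size factor of the library) can be set side by side between genes without a correction for length, although the efficiency of each tag is unknown. *Penk* was the most abundant member, with a mean of 2201 over 24 mice and rank 909 of 13998 genes. *Gal* followed at 1547 and *Tac1* at 1005, then *Vgf* at 746. *Cck* (539), *Nts* (528) and *Pnoc* (496) were close together. *Vip* averaged 146 and *Nucb2* 108, near the middle of all genes by rank (7092 and 7999). The ranges over mice of every pair of neighbours in this order overlapped. These mean levels are those of the whole hypothalamus, in which several of the peptides are made by small groups of cells.

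The precursors differed in how widely they spread between mice. The highest mouse was above the lowest by 80.1-fold for *Vgf*, 25.7-fold for *Vip*, 18.4-fold for *Cck* and 11.6-fold for *Nucb2*, but by 3.77-fold for *Pnoc*. Single mice set much of this: without its lowest mouse the range was 12.7-fold for *Vgf* (*cast/cast* 1 left out), 12.1-fold for *Vip* (*b6/b6* 5), 11.2-fold for *Cck* (*b6/b6* 2), 4.07-fold for *Tac1* (*cast/cast* 4) and 2.23-fold for *Pnoc* (*cast/cast* 10). For *Nucb2* it was 3.15-fold without the 4 libraries, and for *Nts* 3.18-fold without the highest mouse, *cast/cast* 4, against 4.98-fold with it. On the log2 scale the SD within genotype was 1.35 for *Vgf*, which was above that of 98.9% of the 3061 genes of like level (from 0.5 to 2 times its mean). The same percentile was 96.9 for *Vip*, 91.0 for *Cck* and 90.3 for *Penk*, and 37.9 for *Pnoc*. *Penk* and *Nucb2* were lowest in the same mouse, *cast/cast* 6, and highest in the same mouse, *b6/b6* 12, both among the 4 libraries named above.

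**Figure D1:**
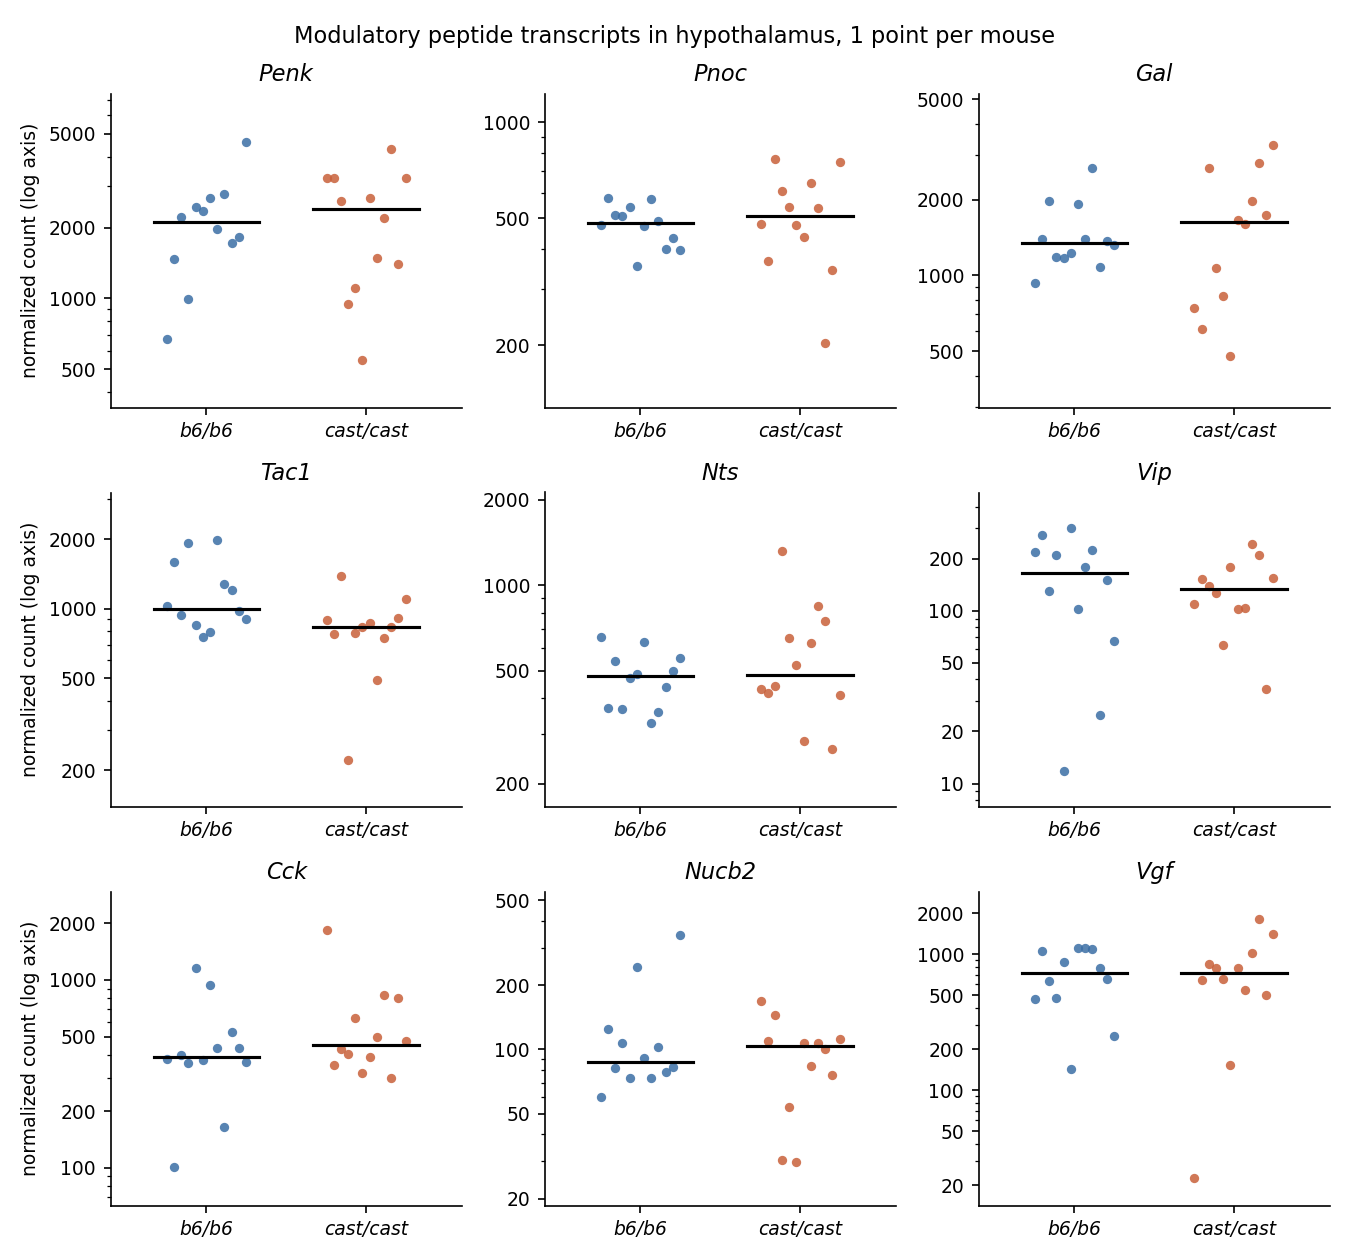
Normalized counts of the 9 peptide precursors (log axis) in hypothalamus of 12 *b6/b6* and 12 *cast/cast* mice, 1 point per mouse, with the median of each genotype as a black line. The genotypes overlapped for every precursor, and for *Tac1* 10 of 12 *cast/cast* mice were below the *b6/b6* median.

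For the opioid-family precursors no difference between genotypes passed the test. *Penk* ran from 674 through a median of 2104 to 4643 in *b6/b6* mice, and from 550 through 2398 to 4308 in *cast/cast* mice. The ranges nearly coincided, although the highest *b6/b6* and the lowest *cast/cast* value came from libraries that stand apart. The log2 fold change (*cast/cast* minus *b6/b6*, on log2(normalized count + 1), as for all fold changes of this kind) was 0.00 ± 0.31 (SE), with a 95% interval from 0.645- to 1.55-fold (limma, P = 0.999), and without the 4 libraries it was 0.44 (P = 0.112). *Pnoc*, the precursor of nociceptin, was the steadiest member in *b6/b6* mice, from 355 through 483 to 578. In *cast/cast* mice it ran from 204 through 509 to 768, so that 2 mice were below and 4 above all *b6/b6* mice. Its means of 478 ± 71.2 and 513 ± 166 (SD, n = 12 each) gave a log2 fold change of 0.04 ± 0.17 (P = 0.835, 95% interval from 0.806- to 1.30-fold).

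*Gal*, which encodes galanin, ran from 937 through 1346 to 2681 in *b6/b6* mice. In *cast/cast* mice it ran from 477 through 1629 to 3301, with 4 mice below and 2 above the whole *b6/b6* range. The wider range in *cast/cast* mice lay on both sides, and the log2 fold change was -0.04 ± 0.27 (P = 0.874, 95% interval from 0.658- to 1.43-fold). Whether the spread itself differed was not tested.

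*Tac1*, the precursor of substance P and neurokinin A, was the member that stood farthest apart between genotypes. It ran from 752 through 1003 to 1996 in *b6/b6* mice, and from 222 through 831 to 1388 in *cast/cast* mice. Of 12 *cast/cast* mice 10 were below the *b6/b6* median, and 3 (replicates 4, 8 and 9) were below all *b6/b6* mice, whereas none was above them all. Mean normalized counts were 1188 ± 432 in *b6/b6* mice and 822 ± 285 in *cast/cast* mice, or 1.45-fold lower in *cast/cast*, and the log2 fold change was -0.56 ± 0.23 (95% interval -1.02 to -0.10). The unadjusted P was 0.0187 in limma, which missed the threshold of 0.01, and the adjusted P over 13998 genes was 0.550. Less *Tac1* RNA per cell and fewer cells that express it cannot be told apart in a whole hypothalamus, and the same holds for the other members.

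The *Tac1* difference kept its direction within both ranges of the study number, an identifier that the labels give each mouse. It was -0.34 (P = 0.354) in 7 *cast/cast* and 5 *b6/b6* mice numbered up to 150, and -0.69 (P = 0.0166) in 5 *cast/cast* and 7 *b6/b6* mice numbered above 150. The difference between these effects was -0.35 (interaction P = 0.443). Without the 4 libraries named above the log2 fold change was -0.49 (P = 0.0152). At the same thresholds *Tac1* was called in 2 alternatives: without *cast/cast* replicate 3 (P = 0.00783) and after libraries were rescaled to the same total (-0.65, P = 0.00962, beside 1.64% of all genes called), where the median log2 fold change of all genes moved from -0.02 to -0.11.

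*Nts*, which encodes neurotensin, had nearly equal medians, at 480 in *b6/b6* mice (326 to 657) and 481 in *cast/cast* mice (266 to 1323). The high end in *cast/cast* mice was 1 library that stands apart, replicate 4, which was also the lowest in *Tac1*. The log2 fold change was 0.18 ± 0.21 (P = 0.396, 95% interval from 0.843- to 1.52-fold). It was 0.057 without that library and 0.079 without the 4 (P = 0.699).

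*Vip* ran from 11.8 through 166 to 302 in *b6/b6* mice and from 35.0 through 133 to 244 in *cast/cast* mice, so that all *cast/cast* mice lay within the *b6/b6* range. The lowest value rested on 13 tag hits and the highest on 323. The log2 fold change was 0.05 ± 0.43 (P = 0.901), although the mean of *cast/cast* mice was lower (135 ± 58.7 against 158 ± 93.7), and 2 *b6/b6* mice (replicates 5 and 10) had very low values, which weigh more on the log2 scale. Its 95% interval, from 0.566- to 1.90-fold, leaves room for differences larger than the 1.5-fold threshold in both directions.

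*Cck*, the precursor of cholecystokinin, ran from 101 through 391 to 1161 in *b6/b6* mice and from 300 through 449 to 1848 in *cast/cast* mice. The groups overlapped, and 1 *cast/cast* mouse (replicate 1) was above all *b6/b6* mice. Its log2 fold change was 0.41 ± 0.32, the highest of the 9, and did not pass the test (P = 0.215, 95% interval from 0.841- to 2.09-fold). Leaving out 1 mouse gave from 0.23 (without *b6/b6* 2) to 0.55 (without *b6/b6* 5), with 0.24 without *cast/cast* 1.

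*Nucb2*, the source of nesfatin-1, ran from 60.0 through 86.9 to 344 in *b6/b6* mice and from 29.7 through 104 to 169 in *cast/cast* mice. The *cast/cast* median was higher while the mean was lower (93.7 ± 42.0 against 122 ± 84.8). Both of the highest *b6/b6* values (replicates 6 and 12) and both of the lowest *cast/cast* values (replicates 4 and 6) came from the libraries that stand apart. The log2 fold change was -0.34 ± 0.30 (P = 0.267), and without these 4 libraries it was 0.24 (P = 0.187).

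*Vgf*, a granule protein cut into several peptides, ran from 142 through 726 to 1119 in *b6/b6* mice. It ran from 22.6 through 729 to 1810 in *cast/cast* mice, and the lowest value, in replicate 1, rested on 21 tag hits. The medians were nearly equal, the log2 fold change was -0.20 ± 0.50 (P = 0.690), and the 95% interval from 0.424- to 1.78-fold was the widest of the 9.

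In all, 0 of the 9 precursors were called at P of at most 0.01 with means at least 1.5-fold apart, a rule that called 1.49% of all genes tested (208 of 13998), 1.01% as lower and 0.471% as higher in *cast/cast* mice. None passed an adjusted P of 0.05, beside 0.572% of all genes. At an unadjusted P of at most 0.05 without a minimum fold 1 precursor passed, *Tac1*, beside 8.13% of all genes in either direction and 4.37% in the same direction. The count under the first rule was also 0 without the 4 libraries, 0 by edgeR (which called 2.79% of all genes) and 0 by DESeq2 (2.84%). At P of at most 0.05 *Tac1* was again the 1 precursor that passed, in edgeR (P = 0.0201, beside 11.6% of all genes) and in DESeq2 (P = 0.0157, beside 12.1%). The log2 fold change was above 0 for 4 members and below 0 for 5, with a median of 0.00 beside -0.02 for all genes. The interaction of genotype and study number range had an unadjusted P of at most 0.05 for 0 of the 9 members, beside 13.5% of all genes (limma, adjusted P for the members from 0.464 to 0.965).

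**Figure D2:**
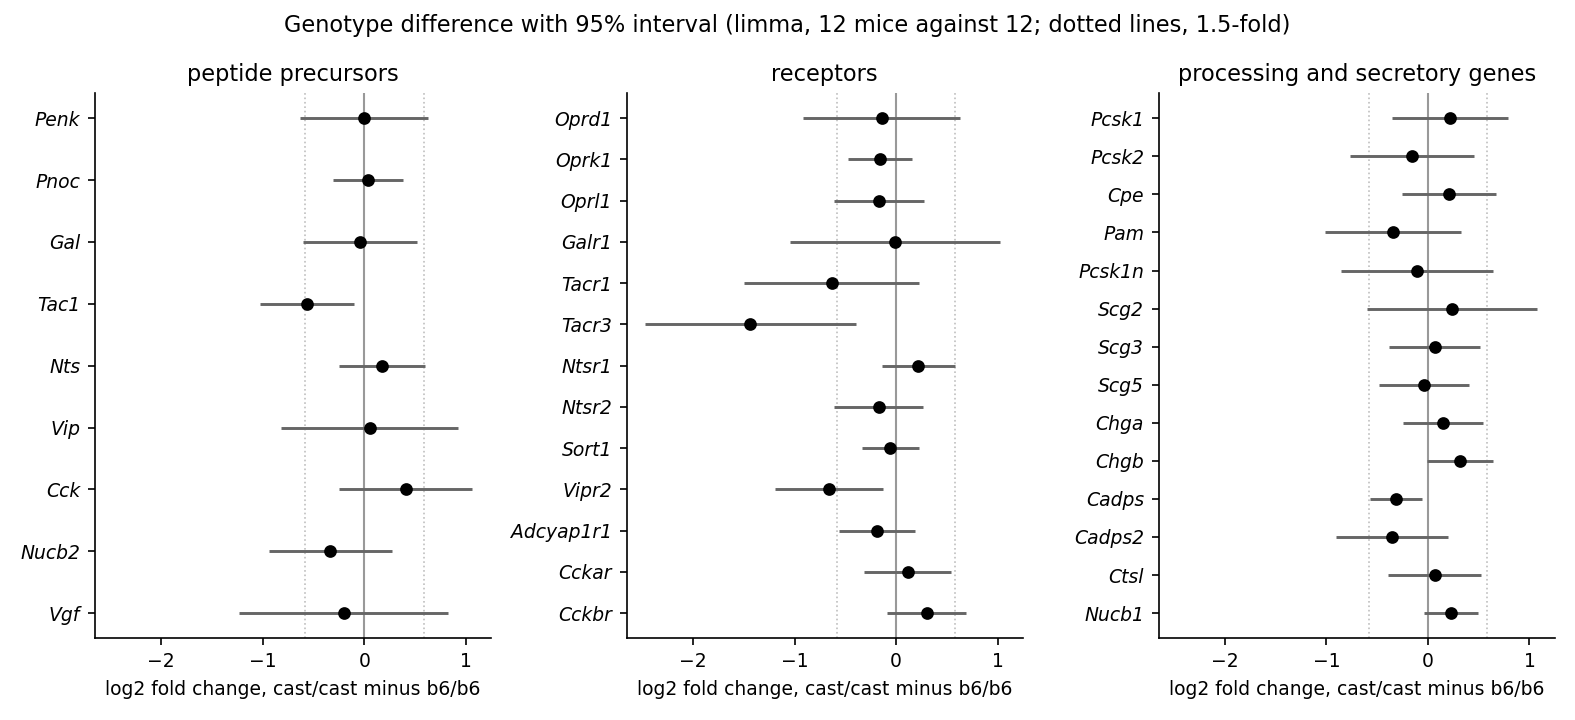
Log2 fold change (*cast/cast* minus *b6/b6*) with its 95% interval for the 9 precursors, 13 receptors and 14 processing and secretory genes, from limma on 12 mice against 12, with dotted lines at 1.5-fold. *Tac1* is the precursor whose interval lies below 0, as do the intervals of *Tacr3* and *Vipr2* among receptors and that of *Cadps* among secretory genes.

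Receptors of these peptides came next. Of 18 listed, 13 were in the table, and *Oprm1*, *Galr2*, *Galr3*, *Tacr2* and *Vipr1* were not analysed here. The log2 fold change was below 0 for 10 of the 13, beside 7378 of all 13998 genes, with a median of -0.16 against -0.02 for all genes. *Ntsr2* was the most abundant (mean 2622) and *Galr1* the least (6.83). The opioid-family receptors *Oprd1*, *Oprk1* and *Oprl1* had log2 fold changes of -0.14, -0.16 and -0.17, with P from 0.323 to 0.708, and the galanin receptor *Galr1* had -0.01 (P = 0.982).

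*Tacr3*, the tachykinin receptor that prefers neurokinin B, was the 1 receptor called, and it was lower in *cast/cast* mice, beside 1.01% of all genes called lower. It ran from 5.66 through 10.8 to 63.1 in *b6/b6* mice and from 0 through 6.79 to 14.7 in *cast/cast* mice, of which 5 were below all *b6/b6* mice. The groups otherwise overlapped, and the values rested on 0 to 58 tag hits, where 0 allows for up to 3. The mean ratio was 2.61-fold, and the log2 fold change was -1.44 ± 0.51 (P = 0.00849, adjusted P = 0.472). The call was lost with a pseudocount of 5, with a minimum mean of 20, within either range of study numbers and without the 4 libraries (-1.13, P = 0.0442). It was also lost in edgeR (P = 0.0153) and on leaving out any 1 of *b6/b6* replicates 2, 3, 4, 6, 8, 9, 10 and 12 or *cast/cast* replicates 1, 5, 6, 8 and 11 (P up to 0.0185).

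*Vipr2*, a receptor of vasoactive intestinal peptide, ran from 14.4 through 32.3 to 99.0 in *b6/b6* and from 9.53 through 20.5 to 39.2 in *cast/cast* mice, and 11 of 12 *cast/cast* mice were below the *b6/b6* median. Its log2 fold change of -0.66 ± 0.26 was not called (P = 0.0171, adjusted P = 0.543), and without the 4 libraries it was -0.38 (P = 0.128). With the study number as a covariate it was -0.83 and was called (P = 0.00184, beside 2.23% of all genes), as it was in edgeR (P = 0.00854, beside 2.79%) and DESeq2 (P = 0.00559, beside 2.84%), each of which called a larger share of all genes than the 1.49% above. *Tacr1*, the receptor of substance P, had mean counts of 30.0 ± 37.7 and 14.6 ± 8.43, with nearly equal medians of 15.6 in both genotypes (log2 fold change -0.64, P = 0.144).

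The list of genes that cut precursors or form dense core vesicles also held *Nucb1*, the paralog of *Nucb2*. All were in the table (14 of 14), and 0 were called (beside 1.49% of all genes), also by edgeR (2.79%) and DESeq2 (2.84%). Of the 14, 1 had an unadjusted P of at most 0.05 (beside 8.13%). Their median log2 fold change was 0.07. The 2 with the lowest P were *Cadps*, a factor for dense core vesicle release, and *Chgb*, a granin. *Cadps* ran from 585 through 788 to 1397 in *b6/b6* mice and from 447 through 666 to 783 in *cast/cast* mice, all 12 of the latter below the *b6/b6* median (log2 fold change -0.32, P = 0.0171, adjusted P = 0.543). *Chgb* ran from 837 through 1920 to 2453 and from 1512 through 2109 to 3474 (0.31, P = 0.0599). *Nucb1* had a log2 fold change of 0.23 (P = 0.0939).

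How the precursors varied together from mouse to mouse was asked next, with log2 values centred by genotype over 24 mice. Of 36 pairs 2 passed a Benjamini-Hochberg adjusted permutation P of 0.05, and 5 had an unadjusted P of at most 0.05. Both pairs were among genes of different peptide families.

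**Figure D3:**
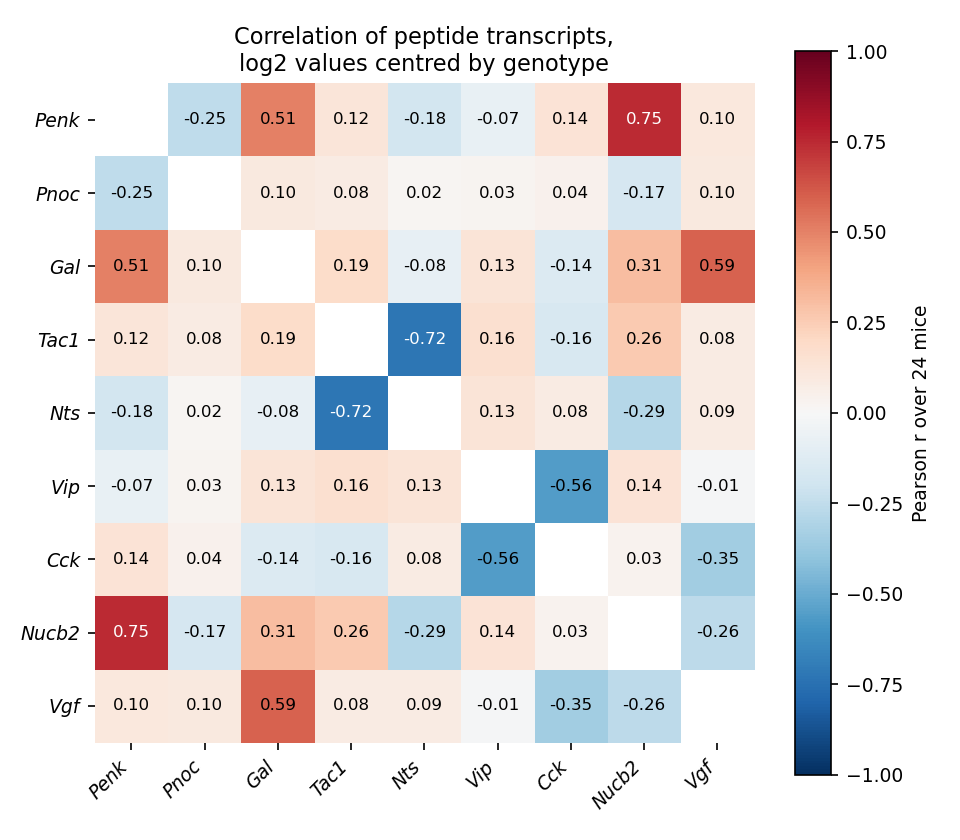
Pearson r for each pair of the 9 precursors over 24 mice, on log2 values centred by genotype (red, positive; blue, negative). The pair of *Penk* and *Nucb2* (0.75) and the pair of *Tac1* and *Nts* (-0.72) lie farthest from 0.

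*Tac1* and *Nts* moved in opposite directions. Pearson's r was -0.72 (permutation P = 0.00014, adjusted P = 0.00252) and Spearman's rho -0.70 (P = 0.00016, adjusted P = 0.0045). The sign was the same in *b6/b6* mice (r = -0.81) and in *cast/cast* mice (-0.70), and in mice numbered up to 150 (-0.82) and above 150 (-0.67), though the smaller sets did not pass the adjusted threshold. Mouse *cast/cast* 4 had both the lowest *Tac1* (222) and the highest *Nts* (1323). Without the 2 mice farthest from the median in *Nts*, *cast/cast* 4 and *cast/cast* 11, r was -0.59, and without the 4 libraries that stand apart it was -0.56 (adjusted P = 0.147). After removal of 2 principal components it was -0.69 (adjusted P = 0.00684). Of the 9995 genes with a mean of at least 50, *Tac1* was the one with the lowest r to *Nts*.

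*Penk* and *Nucb2* rose and fell together, with r = 0.75 (permutation P = 3e-05, adjusted P = 0.00108) and rho = 0.71 (P = 0.00025, adjusted P = 0.0045). In *cast/cast* mice r was 0.89 and in *b6/b6* mice 0.56, and in mice numbered up to 150 and above 150 it was 0.82 and 0.44. Without the 2 mice farthest in *Nucb2* (*b6/b6* 12 and *cast/cast* 6) r was 0.62. It was 0.52 without the 4 libraries (adjusted P = 0.153), and 0.29 after removal of 2 principal components (adjusted P = 0.781). Both genes followed the first of these components, with r of -0.86 for *Penk* and -0.79 for *Nucb2*. What that component stands for was not tested.

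*Gal* and *Vgf* had r = 0.59 (P = 0.00431, adjusted P = 0.0517) and rho = 0.66 (adjusted P = 0.0112), so that the pair passed by rank only. Without the 2 mice farthest in *Vgf* (*b6/b6* 6 and *cast/cast* 1) r was 0.66, and within genotypes it was 0.40 (*b6/b6*) and 0.64 (*cast/cast*). *Vip* and *Cck* had r = -0.56 (P = 0.00871, adjusted P = 0.0784) and rho = -0.46 (adjusted P = 0.207), with -0.67 in *b6/b6* mice and -0.34 in *cast/cast* mice. *Gal* and *Penk* had r = 0.51 (P = 0.0209, adjusted P = 0.150) and rho = 0.43, which without the 2 mice farthest in *Penk* fell to r = 0.30. None of the other pairs reached an unadjusted P of 0.05.

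**Figure D4:**
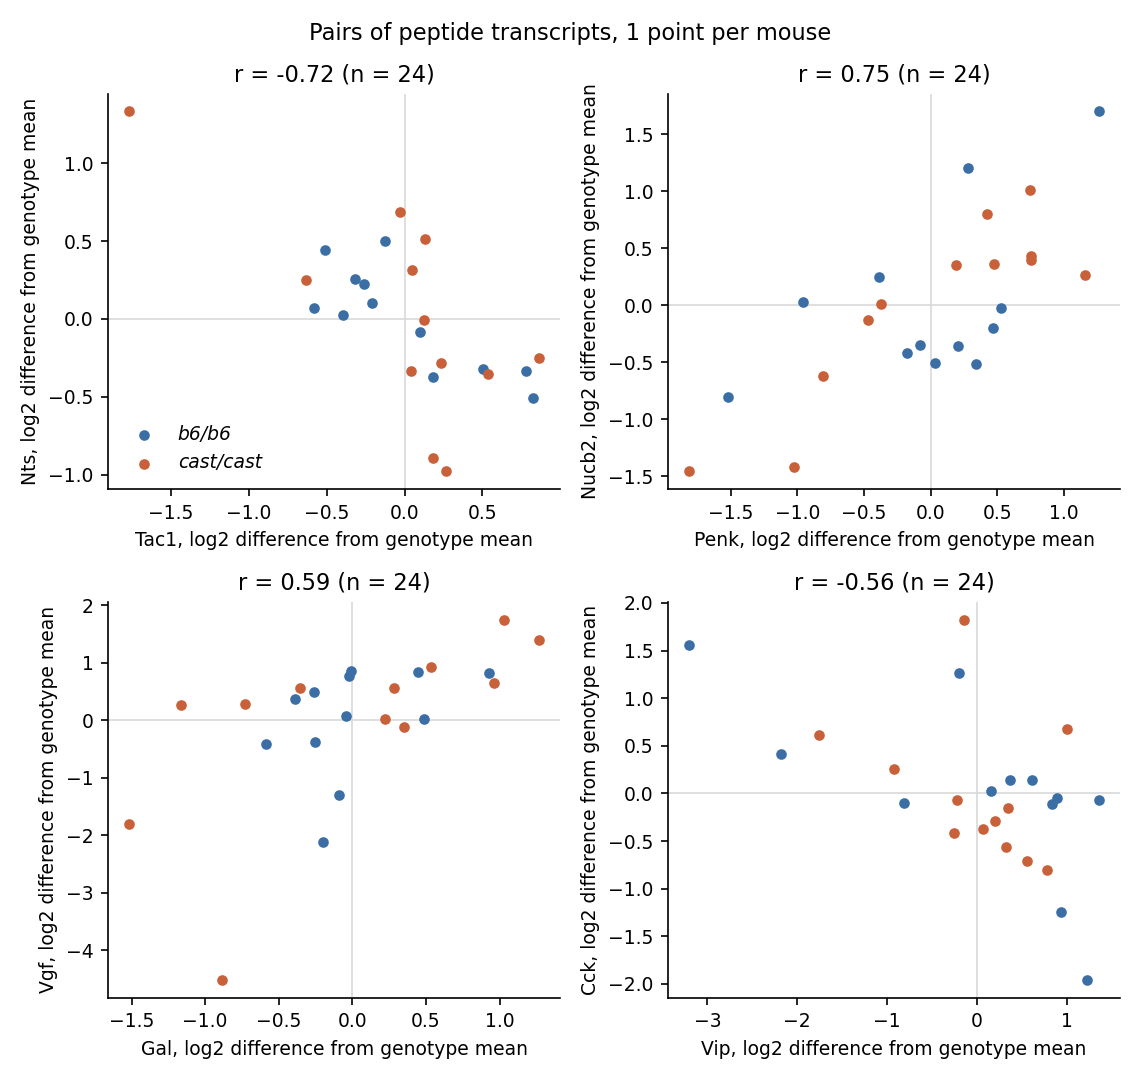
Log2 difference of each mouse from the mean of its genotype, for 4 pairs of precursors (blue, *b6/b6*; orange, *cast/cast*), with Pearson's r over 24 mice above each panel. In the panel of *Tac1* and *Nts* 1 *cast/cast* mouse lies apart at the upper left, and the remaining points still slope downward.

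Each precursor was also set against 12 lists of markers of cell types and nearby tissue, as the mean standardized level of the list in each mouse (108 correlations, centred by genotype). None passed an adjusted P of 0.05, and 17 had an unadjusted P of at most 0.05. With libraries rescaled to the same total 15 passed the adjusted threshold, among them *Penk* with neurons (r = 0.72, adjusted P = 0.00972, against 0.53 and 0.136 before).

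The list of 13 hypothalamic neuron markers, of which 12 were in the table, had summed levels from 11266 to 28483 in *b6/b6* mice and from 6185 to 32839 in *cast/cast* mice, and no listed marker but *Kiss1* was at 0 in any mouse. With it *Gal* had r = 0.62, *Penk* 0.57 and *Nucb2* 0.57, with an unadjusted P of 0.01, 0.0059 and 0.00351 and an adjusted P of 0.136, 0.127 and 0.127. These r were 0.29, -0.20 and 0.08 in *b6/b6* mice and 0.68, 0.84 and 0.78 in *cast/cast* mice. Whether the genotypes differed in them was not tested. Without the 4 libraries r was 0.51, 0.39 and 0.49 (P = 0.0646, 0.0940 and 0.0598), and for *Gal* it was 0.33 without the 2 mice farthest in *Gal*. *Penk* had similar r with the markers of cortex and hippocampus (0.56, P = 0.00549, adjusted P = 0.127) and with the neuron list (0.53, P = 0.00842), and these were 0.43 and 0.38 without the 4 libraries. After removal of 2 principal components these 2 r were -0.26 and 0.31. With the hypothalamic neuron list they were then 0.45 for *Gal*, 0.25 for *Penk* and 0.48 for *Nucb2*. With the striatal list, markers of a tissue known for abundant *Penk*, r was 0.17 (P = 0.448). It was 0.45 (P = 0.0315, adjusted P = 0.155) with libraries rescaled to the same total, and a striatal share in the *Penk* values was not tested.

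*Cck* had r = 0.60 with the 6 thalamic markers (P = 0.00535, adjusted P = 0.127), and 0.70 without the 4 libraries (adjusted P = 0.113), while *Vip* had r = -0.54 (P = 0.0276, adjusted P = 0.254) with the same list. Without the 2 mice farthest on that list r fell to 0.34 for *Cck* and to -0.19 for *Vip*. By rank, rho over all mice was 0.47 for *Cck* (P = 0.0195, adjusted P = 0.273) and -0.32 for *Vip* (P = 0.148). The 6 markers, led by *Tcf7l2* (155) with *Lef1* lowest (14.2), summed to 253 to 1389 in *b6/b6* mice and 273 to 796 in *cast/cast* mice. Their part in the correlation of *Vip* with *Cck* was not tested. *Pnoc* had r = -0.58 with the list of astrocytes and tanycytes (7 of 8 in the table, P = 0.0023, adjusted P = 0.127), which ranged in sum from 15517 to 27069 in *b6/b6* mice and from 19811 to 28338 in *cast/cast* mice. This r was -0.14 in *b6/b6* mice and -0.77 in *cast/cast* mice, a difference that was not tested. With libraries rescaled to the same total it was -0.37 (P = 0.0643).

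*Tac1* had the highest r of all with the 7 microglia markers, 0.66 (P = 0.00917, adjusted P = 0.136), but 0.16 without the 4 libraries and 0.26 without the 2 mice farthest in *Tac1* (*cast/cast* 3 and *cast/cast* 4). The microglia list, led by *Cx3cr1* (1370) with *Tmem119* lowest (18.2), summed to 1778 to 4160 in *b6/b6* mice and 2218 to 5692 in *cast/cast* mice, and its part in the *Tac1* difference between genotypes was not tested.

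The genes whose pattern was most like that of each precursor were found among the 9995 genes with a mean of at least 50, by Pearson's r over 24 mice on values centred by genotype. These r are descriptions without a test. For neighbours, r in a range of study numbers or without the 4 libraries kept the centring over 24 mice. For the pairs and lists above, values were centred again within each such set, so the 2 kinds of r are not the same measure. After removal of 2 principal components 2 of the 3 genes stayed among the nearest 3 for *Vip* (*Nms* and *Rgs16*) and for *Vgf* (*Dlg4* and *Lrrc4b*), 1 for *Tac1* (*Eif2ak3*) and for *Cck* (*Mtmr14*), and 0 for *Gal*, *Penk*, *Pnoc*, *Nts* and *Nucb2*. For *Vip* they were *Nms* (r = 0.73), which encodes neuromedin S, *Rgs16* (0.62), a regulator of G protein signalling, and *Avp* (0.58), which encodes vasopressin. For *Nms*, r was 0.77 in *b6/b6* mice and 0.70 in *cast/cast* mice, but 0.40 in mice numbered up to 150 against 0.87 above 150. For *Avp* it was 0.83 in *b6/b6* mice and 0.30 in *cast/cast* mice, and 0.20 and 0.72 in the 2 ranges of study numbers.

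**Figure D5:**
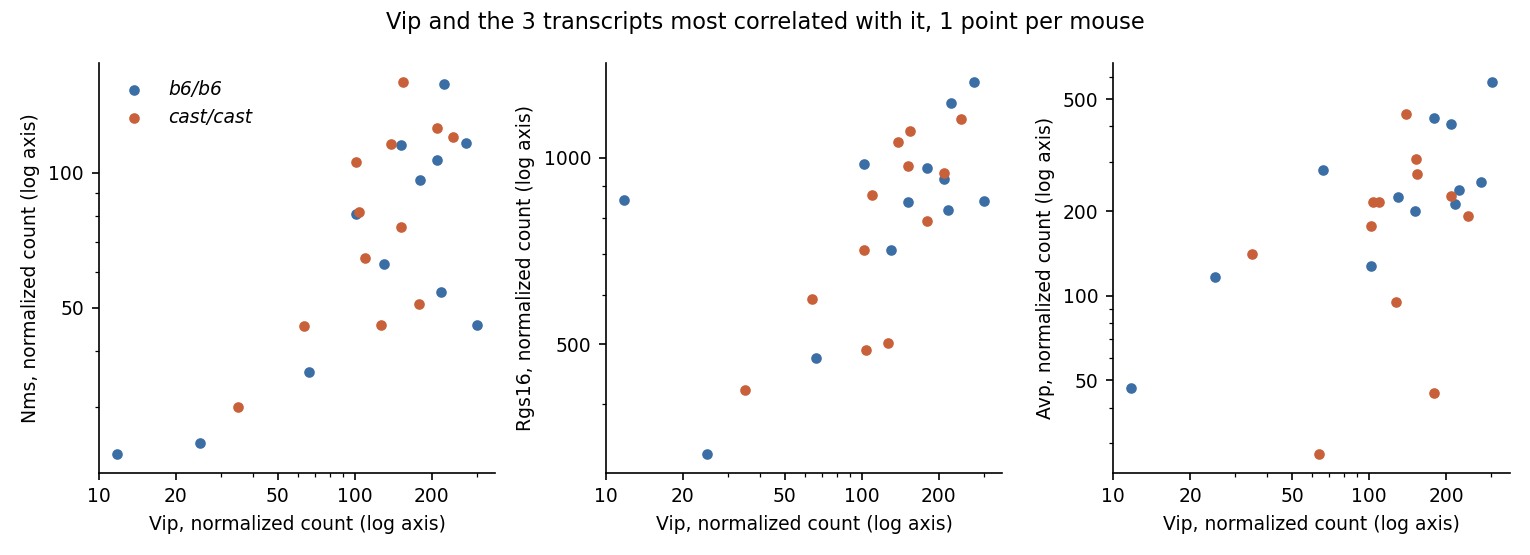
Normalized counts of *Vip* (horizontal, log axis) against those of *Nms*, *Rgs16* and *Avp* (vertical, log axes) in 24 mice (blue, *b6/b6*; orange, *cast/cast*). The mice with the least *Vip* are among those with the least *Nms*, and in the panel of *Rgs16* 1 *b6/b6* mouse with the lowest *Vip* lies away from the others.

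For *Vgf* the genes most like it were *Dlg4* (r = 0.90), the postsynaptic scaffold PSD-95, *Lrrc4b* (0.88) and *Cdk5r2* (0.87), an activator of the kinase Cdk5, with 0.93, 0.94 and 0.88 without the 4 libraries. For *Gal* they were *Cenpv* (0.86), *Pdia6* (0.86), a protein disulfide isomerase of the endoplasmic reticulum, and *Sec22b* (0.85), a vesicle trafficking protein. *Cck* was followed most closely by *Emx2* (0.77), a homeobox factor, *Mtmr14* (0.75) and *Adra1b* (0.75), an adrenergic receptor.

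*Penk* was most like *Slc25a5* (0.91), a mitochondrial ADP/ATP carrier, *Tusc3* (0.90) and *Cct2* (0.90), a chaperonin subunit. *Nucb2* was most like *Pttg1* (0.91), *Uchl3* (0.91), a deubiquitinating enzyme, and *Aqp11* (0.91), an aquaporin. Both genes were farthest below 0 with *Lpxn* (-0.92 for *Penk*) and *Mfhas1* (-0.92 for *Nucb2*).

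*Pnoc* had *Wdr45l* (0.76), *Leng8* (0.76) and *Pi4ka* (0.75), a phosphatidylinositol kinase, nearest to it, and *Nts* had *Ppp2r2d* (0.67), *Gm6537* (0.65) and *Klc2* (0.65), a kinesin light chain. *Tac1* had *0910001L09Rik* (0.81), *Eif2ak3* (0.79), the stress kinase PERK, and *Anxa2* (0.77), an annexin, but in *b6/b6* mice these were 0.62, 0.56 and 0.33 against 0.92, 0.90 and 0.92 in *cast/cast* mice. Without the 4 libraries, of which *cast/cast* 4 held the lowest *Tac1*, they were 0.63, 0.60 and 0.54.

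Whether precursor levels followed the 10 d intake of the same mice was examined within each genotype, since the mice were chosen by intake. Of 36 correlations (9 genes, 2 genotypes, carbohydrate/protein and total kcal) 0 passed an adjusted P of 0.05 and 2 had an unadjusted P of at most 0.05. In *cast/cast* mice *Nucb2* had r = 0.72 with total kcal (permutation P = 0.00907, adjusted P = 0.327) and rho = 0.76, and *Penk* had r = 0.65 (P = 0.0236, adjusted P = 0.404) and rho = 0.73. Without the 2 mice farthest in intake r was 0.49 for *Nucb2* and 0.50 for *Penk*, and without *cast/cast* 4 and 6 it was 0.78 and 0.71. In *b6/b6* mice the same r were -0.53 (P = 0.0785, rho -0.66 with P = 0.0213) and -0.31 (P = 0.335, rho -0.40), in the opposite direction. *Penk* in *cast/cast* mice also ran opposite with the kcal of the carbohydrate/protein diet (r = -0.44, P = 0.151, rho -0.68 with P = 0.0177). This r was -0.78 without *cast/cast* 4 and 6, but -0.31 without the 2 mice farthest in that intake. By rank as by r, 0 of 36 passed the adjusted threshold. The difference between genotypes was not tested. The tissue was not collected during the 10 d of measured intake, but after a return to chow and 48 h with both diets again.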

How the data were processed

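Hypothalamus RNA of 24 mice was measured by SAGE-Seq, with 27-base tags read on a SOLiD system. The deposited signal of a gene in a mouse is its number of tag hits, aligned by the authors to RefSeq mRNA and GRCm38 with SOLiD SAGE software, over the size factor that DESeq gave that library. The table's columns of fold change, log2 fold change and P hold the authors' own comparison and were not used.

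Repeated rows (19529 for 13998 genes) were reduced to 1 per gene. Dividing each library by its smallest step returned whole tag hits for 100% of values (tolerance 1e-06). The total count of hits was 7754202 to 13082873 per library. Tags carry no molecular identifiers, so hits cover counting error only. The lowest mean of any gene was 6.03, and genes below it were not analysed here. No 2 libraries held the same counts (lowest chi-square per degree of freedom over 276 pairs, 14.7).

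The genotype effect, *cast/cast* minus *b6/b6*, came from limma 3.58.1 (lmFit, and eBayes with trend) fitted to log2(normalized count + 1) of genes averaging 5 or more. Calls needed P no higher than 0.01 and means at least 1.5-fold apart. Adjusted P are Benjamini-Hochberg values over all genes. Correlations used log2 values, 100000 permutations within genotype (two-sided) and Benjamini-Hochberg adjustment over 36 pairs, 108 marker correlations and 36 intake correlations. Receptors and processing genes were named if called or among the 2 with the lowest P, and the opioid-family receptors, *Galr1*, *Tacr1* and *Nucb1* after their values were seen. Neighbours were the 3 genes with the highest r. The tag of 1 precursor is not reported here.

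Alternatives included a pseudocount of 0.5 or 5, a minimum mean of 20 or none, rescaling to the same total, the study number as covariate or in 2 ranges split at 150, leaving out each library, edgeR 4.0.16 (quasi-likelihood, TMM) and DESeq2 1.42.0 on the recovered hits, and other thresholds. Leaving out 4 libraries and the use of 2 principal components were added after the data were seen. The tests were checked on simulated data. The members and gene lists were chosen with earlier results of these data known. Software also included R 4.3.3, Python 3.11.15, scipy 1.17.1, numpy 2.4.6, matplotlib 3.10.9 and pandas 2.3.3.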

Additional observations from a re-analysis of the deposited data

How the results depend on the processing

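The depth limits *Tacr3*, *Galr1* and the lowest *Vip*, *Nucb2* and *Vgf* values, which rest on few tags. No paired analysis was made because the labels pair no *cast/cast* mouse with a *b6/b6* mouse, and replicate numbers only count the mice within a genotype. The labels name no batch, and they give the study number as an identifier only.

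Of the log2 fold changes that changed sign, which include *Nucb2* (-0.34 in the main test) and *Vgf* (-0.20), none passed the test in either direction. With rescaling to the same total this held for *Pnoc* (-0.056) and *Vip* (-0.037), and with the study number as covariate (-0.10) or its range as a term (-0.074) for *Vip*. Above study number 150 it held for *Gal* (0.39), *Penk* (0.27), *Nts* (-0.082), *Vip* (-0.27) and *Nucb2* (0.007). Without the 4 libraries that stand apart it held for *Gal* (0.12), *Penk* (0.44), *Pnoc* (-0.061) and *Nucb2* (0.24). In edgeR and DESeq2 it held for *Gal* (0.14 in both), *Penk* (0.067 in both), *Vip* (-0.23 and -0.22) and *Vgf* (0.085 and 0.090). Leaving out 1 library gave -0.16 to 0.094 for *Gal*, -0.14 to 0.16 for *Penk*, -0.025 to 0.15 for *Pnoc*, -0.24 to 0.21 for *Vip*, -0.40 to 0.21 for *Vgf* and -0.64 to -0.40 for *Tac1*.

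The number of precursors called rose from 0 to 1 with rescaling (beside 1.64% of all genes) and under the looser rule of P of at most 0.05 at any fold (beside 8.13%). It was 0 or 1 on leaving out 1 library. Receptors called were 1 in the main test (beside 1.49% of all genes). They were 0 with a pseudocount of 5, a minimum mean of 20, either study number range, an adjusted P of 0.05 and without the 4 libraries. They were 2 with the study number as covariate or term, 2 principal components, DESeq2 and P of at most 0.05. Each of these settings also called more of all genes than the main test did. On leaving out 1 library receptors called were 0 to 2. Processing genes called rose from 0 to 1 at P of at most 0.05 (beside 8.13% of all genes). All genes called moved from 208 to 457 up to study number 150, 312 with the study number as covariate and 249 with its range as a term. They were 696 with 2 principal components, 390 in edgeR, 397 in DESeq2, 80 at an adjusted P of 0.05 and 1138 at P of at most 0.05. On leaving out 1 library they ranged from 145 to 255. The 2 components came from values centred by genotype, so with them no fold change could move, only its P.

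Pairs of precursors that passed fell from 2 to 1 in *cast/cast* mice alone and with 2 principal components removed, and to 0 in *b6/b6* mice, in either study number range and without the 4 libraries. Correlations with marker lists that passed rose from 0 to 1 in *b6/b6* mice and 15 with rescaling. The cause of these changes was not tested. The subsets also held fewer mice, and the part of that was not tested either.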
